A study of Mus musculus with 6 samples.

Results

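Of the cardiac ion channel genes on these arrays, 8 genes are described here, namely Kcnd2, Kcnip2, Kcnj2, Kcnj3, Kcnj11, Kcnq1, Kcnh2 and Kcna5. They were chosen as a fixed set of names, and every array probe whose RefSeq accession maps to 1 of them was taken, which gave 11 probes out of 39429. All 8 encode potassium channel subunits, so sodium channel subunits appear below only among the other channel genes. The array's probes name 20659 genes in all, of which these are 8. Ventricles of female C57BL/6N mice aged 21 weeks were measured. The sleep fragmented group had its sleep interrupted for 5 weeks (3 arrays), and the control group, of the same sex, age and strain, was left undisturbed (3 arrays). The device used to fragment sleep and the clock time of collection are not given in the sources used here. Separate animals are not stated for the samples, and the p-values therefore reflect only the spread among the arrays, which may be technical.

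Potassium channels end each heartbeat's action potential by letting potassium leave the myocyte. In the mouse ventricle a fast transient outward current carried by Kv4 channels does most of the early work, inward rectifiers hold the resting potential, and several delayed rectifiers finish repolarisation. Kcnip2 encodes the auxiliary subunit KChIP2, which binds Kv4 channels, and in mouse heart its transcript is known to follow the circadian clock through the transcription factor Klf15. Bulk tissue was measured, so fewer cells of a type and less RNA per cell cannot be told apart.

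The stretches upstream of 3 of the genes are shown first, because 2 of them encode the partners of the clock-linked transient outward current and the third is the only member with a canonical E-box there. Each is the 250 bases before the gene's start, 5′ to 3′ on the gene's strand, from the RefSeq promoter table of GRCm38.p6, in which 6 of the 8 genes matched. Capitals mark the motifs searched on both strands, the E-box CACGTG that clock activators bind, the D-box TTANGTAA and the CACCC element CCACCC that Krüppel-like factors recognise; matches of different motifs did not overlap in these stretches. Kcnip2 lies on the minus strand (chr19:45816064-45816313), Kcnd2 on the plus strand (chr6:21215096-21215345) and Kcnj2 on the plus strand (chr11:111065914-111066163).
Kcnip2: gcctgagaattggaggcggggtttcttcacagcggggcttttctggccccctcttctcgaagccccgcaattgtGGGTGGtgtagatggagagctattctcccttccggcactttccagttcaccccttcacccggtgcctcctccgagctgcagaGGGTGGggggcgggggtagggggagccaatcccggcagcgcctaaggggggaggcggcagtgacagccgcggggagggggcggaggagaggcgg
Kcnd2: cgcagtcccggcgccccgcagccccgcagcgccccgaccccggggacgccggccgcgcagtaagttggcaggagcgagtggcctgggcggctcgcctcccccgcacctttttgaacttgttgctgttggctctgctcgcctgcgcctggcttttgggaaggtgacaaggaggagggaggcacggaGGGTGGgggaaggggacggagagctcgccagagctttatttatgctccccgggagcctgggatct
Kcnj2: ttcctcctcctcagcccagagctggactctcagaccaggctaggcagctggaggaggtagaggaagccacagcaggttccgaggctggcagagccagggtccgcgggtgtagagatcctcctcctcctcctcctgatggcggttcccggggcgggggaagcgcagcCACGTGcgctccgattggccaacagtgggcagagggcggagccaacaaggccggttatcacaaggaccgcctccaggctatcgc
The Kcnip2 stretch held 2 CACCC elements, starting at positions -176 and -94 from the gene's start, with no E-box or D-box. The Kcnd2 stretch held 1 CACCC element at -65, and the Kcnj2 stretch held 1 E-box at -84. Among the 6 matched members 1 held an E-box, 0 a D-box and 4 a CACCC element. Over all 32851 stretches of this length in the table, 6.02% held the E-box, 2.06% the D-box and 28.1% the CACCC element. A match is a string of letters in this window and was not tested as a binding site.

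Values are log2 signals relative to the 75th percentile of the same array, so 0 is that percentile, and levels are compared only within a probe. The 75th percentile of signal was 127 on sleep fragmented replicate 1 against 212 to 262 on the other arrays, and the share of probes detected above background per array lay between 59.2% and 72.6%. Each group was scanned in a run of its own, and scan and group cannot be told apart for any difference below. All 10 ventricular myocyte markers, such as Myl2 and Myh6, were kept, with a summed linear signal of 763 to 1340 times the 75th percentile on sleep fragmented arrays and 772 to 962 times on controls. The atrial markers varied widely within both groups although the labels give ventricles. Sln, an atrial inhibitor of the calcium pump, stood at -3.77, 5.77 and 2.99 on the sleep fragmented arrays and at -4.87, 5.66 and 2.93 on the control arrays. It was well above background on 2 of 3 arrays of each group, so it was not kept, and its range includes background readings. Erythroid markers moved with the group: 5 of 6 had an unadjusted p under 0.05, all 6 were positive, and their summed linear signal was 161 to 400 on sleep fragmented arrays against 104 to 116 on controls. The part of these cells in the channel values was not tested.

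None of the 8 genes passed the test between sleep fragmented and control hearts. By limma, 0 of 8 had an adjusted p under 0.05 and 0 of 8 an unadjusted p under 0.05. Among the 11 probes, 0 had an unadjusted p under 0.05 and 0 of those were at least 1.5-fold different. Over all 25219 probes fitted, 0 (0%) passed the adjusted threshold, and 2.72% of the 14548 named genes had an unadjusted p under 0.05 (1.69% higher and 1.02% lower), as did 2.71% of the probes. Such a p together with a 1.5-fold difference was found for 1.88% of the probes, 1.23% higher and 0.65% lower. The log2 fold changes of the 8 genes ran from -0.34 to 0.49 with a median of 0.16, beside a median of 0.08 over all kept probes. Of the 8 genes 7 had a positive value, where 59.4% of all named genes did. No member probe reached a 1.5-fold difference, and the smallest adjusted p among them was 0.949. The half-widths of the 95% intervals ran from 0.47 to 0.76 log2 units. A difference smaller than a probe's half-width could not reach an unadjusted p under 0.05 with 3 arrays per group. The adjusted threshold was stricter, and the smallest adjusted p over all probes was 0.534 by limma. Larger differences also went uncalled, such as 1.41 for the clock gene Dbp (adjusted p = 0.949 by limma).

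**Figure D1:**
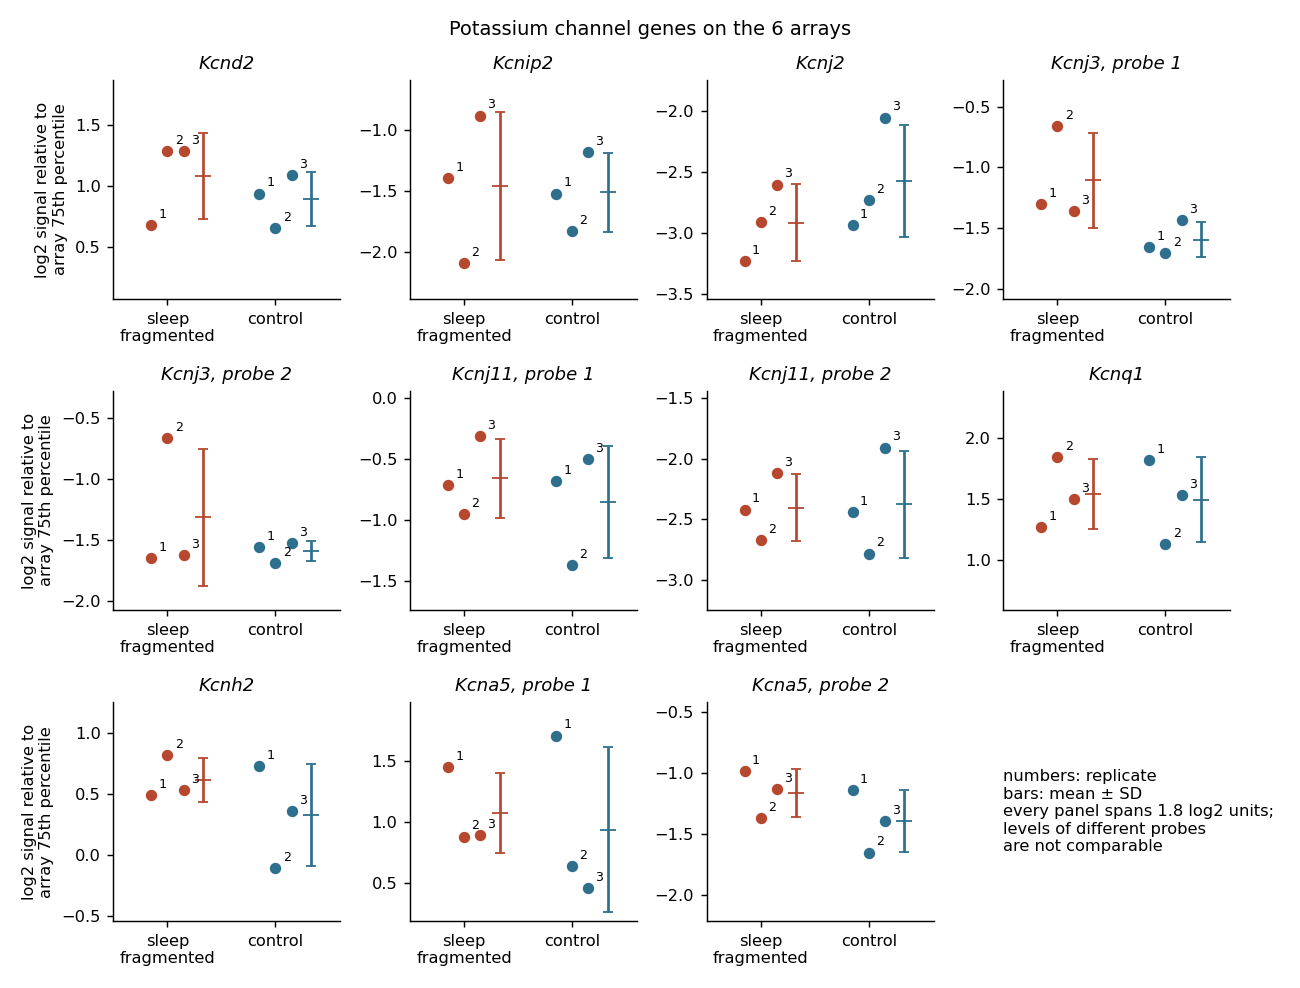
Log2 signal relative to the array's 75th percentile (y axis, each panel spanning the same number of log2 units) of the 11 probes on the sleep fragmented and control arrays; points are arrays with their replicate number, bars the mean ± SD of 3 arrays. The groups overlap in every panel except that of Kcnj3 probe 1, and Kcna5 is highest on replicate 1 of both groups.

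**Figure D2:**
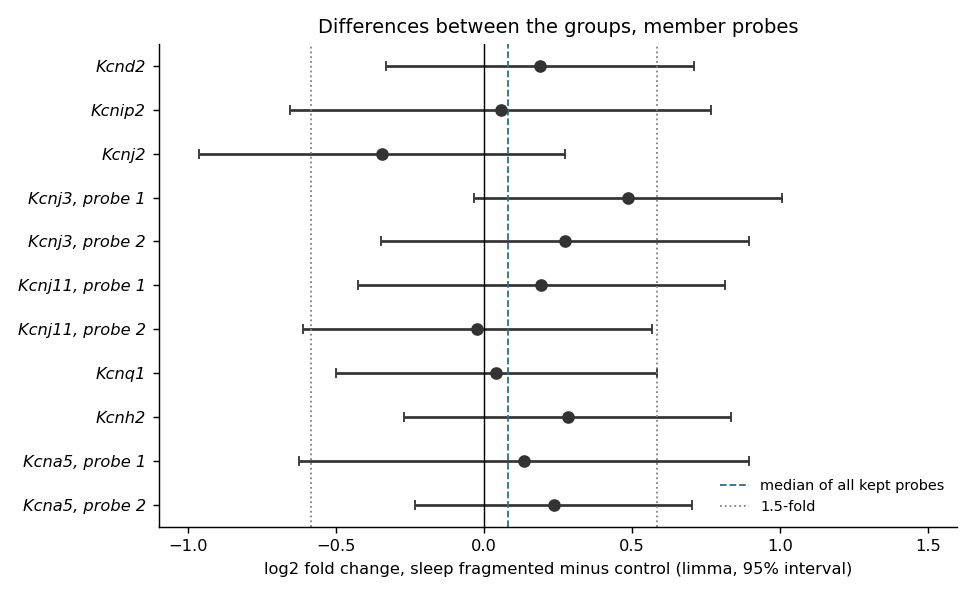
Log2 fold change of each member probe, sleep fragmented minus control (x axis), with limma's 95% interval; the dashed line is the median of all kept probes (0.08) and the dotted lines mark 1.5-fold. Every interval includes 0, and that of Kcnj3 probe 1 reaches down to -0.03.

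The transient outward current was described by Kcnip2 and Kcnd2. Kcnip2, probe A_51_P237255, stood at -1.39, -2.09 and -0.88 on sleep fragmented replicates 1, 2 and 3 and at -1.52, -1.83 and -1.18 on control replicates 1, 2 and 3. The groups overlapped fully, and in both of them replicate 2 was the lowest array and replicate 3 the highest. The means were -1.45 ± 0.61 in sleep fragmented hearts and -1.51 ± 0.32 in control hearts (SD, n = 3 each). The log2 fold change was 0.06 ± 0.31 (SE; 1.04-fold, 95% interval 0.635 to 1.70, adjusted p = 0.983 by limma). The sign of this value was not stable: without sleep fragmented replicate 3 it was -0.23, without control replicate 2 it was -0.10, and with quantile normalization -0.09 (adjusted p = 0.998). With array weights it was 0.43 (unadjusted p = 0.0531, adjusted p = 0.20 by limma), the highest value of the alternatives run. Here and below, those weights rest mostly on control replicate 1 (6.38) and sleep fragmented replicate 3 (3.33).

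Kcnd2, which encodes the pore-forming subunit Kv4.2, stood at 0.68, 1.29 and 1.29 on the sleep fragmented arrays and at 0.94, 0.66 and 1.09 on the control arrays. Replicates 2 and 3 of the sleep fragmented hearts were above every control and replicate 1 was below all but the lowest, so the groups overlapped. The log2 fold change was 0.19 ± 0.23 (SE; 1.14-fold, 95% interval 0.795 to 1.63, adjusted p = 0.949 by limma). On sleep fragmented replicate 2, where Kcnip2 was at its lowest of the 6 arrays, Kcnd2 was at its joint highest.

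Other parts of the same complex gave no call. Dpp6, an auxiliary subunit of Kv4 channels, had a log2 fold change of -0.03 ± 0.225 (SE, n = 3 each); it was picked with its value known. The 2 kept probes of Kcnd3, the gene of the related pore subunit Kv4.3, had log2 fold changes of opposite sign, -0.26 ± 0.18 for the brighter and 0.49 ± 0.26 for the other. The brighter Kcnd3 probe stood at 0.35, 0.55 and 0.47 on sleep fragmented arrays and at 0.78, 0.81 and 0.55 on control arrays, so that the groups met at 0.55 without overlapping. Kcna4, the gene of the slow transient outward subunit Kv1.4, had 3.92, 3.61 and 3.90 on sleep fragmented arrays and 3.79, 3.79 and 3.68 on control arrays (log2 fold change 0.06 ± 0.18).

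Klf15, the activator of Kcnip2, and the clock genes were set beside it. Klf15 stood at 4.38, 4.17 and 4.65 on the sleep fragmented arrays and at 4.58, 4.16 and 4.32 on the control arrays, which overlap, with a log2 fold change of 0.05 ± 0.21 (SE, adjusted p = 0.978 by limma). Its sign was not stable, at -0.16 with median scaling and -0.09 with normexp background correction. Of the 14 kept clock genes of 18 listed, 0 passed the adjusted threshold, while 4 were higher and 0 lower at an unadjusted p under 0.05, where 1.69% of all named genes were higher. These were the D-box factor genes Dbp (log2 fold change 1.41 ± 0.35) and Hlf (1.07 ± 0.21) and the clock repressor genes Per1 (0.93 ± 0.25) and Per2 (1.09 ± 0.26), the last above background on 2 of 3 control arrays and kept through the sleep fragmented ones. The count of 4 became 10 with array weights and 8 when sleep fragmented replicate 2 was left out. Over all 25219 probes the count at an unadjusted p under 0.05 by limma rose too. It went from 683 to 6490 with array weights and to 1177 without sleep fragmented replicate 2. With array weights 109 of the 25219 probes passed the adjusted threshold. Among them were Dbp (adjusted p = 0.0304 by limma), Per2 (0.0334) and Hlf (0.0393). Per1 then had a log2 fold change of 0.39 (unadjusted p = 0.0561).

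Dbp, which had the highest log2 fold change of the kept clock genes, is given by array. It stood at 2.93, 1.70 and 2.96 on the sleep fragmented arrays and at 1.47, 0.79 and 1.11 on the control arrays. The groups did not overlap for 4 of the 14 kept clock genes, the same 4 that were named for their p between these groups, so this is a description and no further support; 6.93% of all probes did not overlap. The other 10 kept clock genes overlapped between the groups, as did Kcnip2, Kcnd2 and Klf15. Within each group the lowest array for Dbp was replicate 2, as it was for Kcnip2. That was not so in both groups for Hlf, Per1 or Per2. Hlf was lowest on replicate 1 of the sleep fragmented group (0.11) and replicate 2 of the controls (-1.22). Per1 was lowest on replicate 3 of each group (2.58 and 1.53). Per2 was lowest on sleep fragmented replicate 2 (-2.08) and control replicate 3 (-3.12). Of all kept probes, 43.9% were lowest over all arrays on control replicate 2 and 17.5% on sleep fragmented replicate 2.

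**Figure D3:**
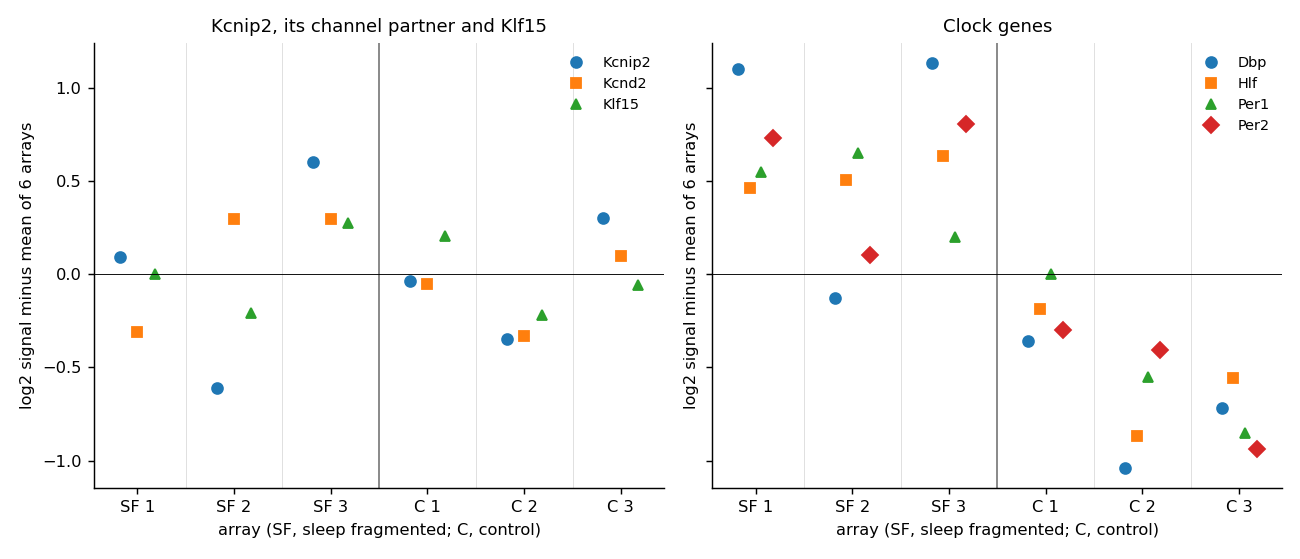
Log2 signal minus the gene's mean over the 6 arrays (y axis) on each sleep fragmented (SF) and control (C) array, for Kcnip2, Kcnd2 and Klf15 on the left and for 4 clock genes on the right. The clock genes shown, named for their p between these groups, are higher on all SF arrays than on all C arrays, and the genes on the left overlap between the groups.

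The 5 named genes whose pattern over the 6 arrays lay closest to that of Kcnip2, among 13920 compared, were Tmem201, Dnm3, Macrod1, Pex19 and Sbk1. The root mean square difference from Kcnip2, after centring each gene on its own mean, was 0.10 log2 units for Tmem201 and 0.12 for Sbk1. Their log2 fold changes between the groups ran from -0.04 to 0.08. None of them was in the clock or channel lists.

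Among the delayed rectifiers, Kcna5 encodes Kv1.5. Its 2 probes differed in their spread, with an SD over the 6 arrays of 0.48 for the brighter and 0.24 for the other. The brighter probe, A_52_P58283, stood at 1.45, 0.88 and 0.89 on the sleep fragmented arrays and at 1.71, 0.64 and 0.46 on the control arrays. Replicate 1 was the highest array of both groups, and the groups overlapped. The means were 1.07 ± 0.33 in sleep fragmented hearts and 0.94 ± 0.68 in control hearts (SD, n = 3 each), with a log2 fold change of 0.14 ± 0.34 (SE; 95% interval -0.62 to 0.90, adjusted p = 0.962 by limma). The other probe, A_55_P2106891, stood at -0.98, -1.37 and -1.13 on sleep fragmented arrays and at -1.14, -1.65 and -1.39 on control arrays, again with replicate 1 highest in each group. Its log2 fold change was 0.23 ± 0.21. The sign on the brighter probe changed with single arrays: without control replicate 1 the log2 fold change was 0.53, and without control replicate 3 it was -0.10, neither with an unadjusted p under 0.05. With array weights it was -0.61 (unadjusted p = 0.0273, adjusted p = 0.147 by limma).

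Kcnh2 encodes the subunit of the rapid delayed rectifier, known as ERG. It stood at 0.49, 0.82 and 0.53 on the sleep fragmented arrays and at 0.73, -0.11 and 0.36 on the control arrays. Control replicates 2 and 3 were below every sleep fragmented array, and control replicate 1 was within their range, so the groups overlapped. The log2 fold change was 0.28 ± 0.24 (SE; 1.22-fold, 95% interval 0.83 to 1.78, adjusted p = 0.949 by limma), and without control replicate 2 it was 0.06.

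Kcnq1 encodes the pore of the slow delayed rectifier and stood at 1.27, 1.84 and 1.5 on the sleep fragmented arrays and at 1.82, 1.13 and 1.53 on the control arrays. Its groups covered nearly the same range, with a log2 fold change of 0.04 ± 0.24 (SE; 1.03-fold, 95% interval of the log2 value -0.50 to 0.58, adjusted p = 0.983 by limma). The auxiliary subunit genes of these 2 channels, Kcne1 and Kcne2, were not kept, since neither was well above background on every array of a group.

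The inward rectifiers gave the lowest and the highest fold changes of the 8 genes. Kcnj2, which encodes Kir2.1 and carries much of the resting potassium current, stood at -3.23, -2.91 and -2.60 on the sleep fragmented arrays and at -2.93, -2.73 and -2.05 on the control arrays. It was well above background on 2 of 3 sleep fragmented arrays and on all 3 controls, and was kept through the control arrays. The highest array was a control and the lowest a sleep fragmented one, and the groups overlapped. The log2 fold change was -0.34 ± 0.27 (SE; 0.787-fold, 95% interval 0.513 to 1.21, adjusted p = 0.949 by limma). Without control replicate 3 it was -0.08, with quantile normalization -0.59 (unadjusted p = 0.0402, adjusted p = 0.997), and with normexp background correction -0.0030. Kcnj12, the gene of the related Kir2.2, had a log2 fold change of -0.02 ± 0.21.

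Kcnj3 encodes Kir3.1, which with the Kcnj5 product Kir3.4 forms the acetylcholine-gated channel of atrial and nodal myocytes. Its brighter probe, A_55_P2159685, stood at -1.30, -0.66 and -1.36 on the sleep fragmented arrays and at -1.65, -1.70 and -1.43 on the control arrays. All sleep fragmented arrays were above all controls, and sleep fragmented replicate 2 stood well above the rest. Non-overlap in either direction was found for this 1 of 11 member probes and for 6.93% of all probes; 3.59% of all probes were higher without overlap. The log2 fold change was 0.49 ± 0.23 (SE; 1.40-fold, 95% interval 0.976 to 2.01, unadjusted p = 0.0639, adjusted p = 0.949 by limma).

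The other Kcnj3 probe, A_52_P560006, stood at -1.65, -0.67 and -1.63 on sleep fragmented arrays and at -1.56, -1.69 and -1.53 on control arrays. Here only sleep fragmented replicate 2 was above the controls, and the log2 fold change was 0.27 ± 0.28 (SE). Without sleep fragmented replicate 2 the log2 fold changes were 0.26 for the first probe and -0.05 for the second. For the first probe the unadjusted p was 0.0291 with array weights (adjusted p = 0.152 by limma) and 0.0498 without sleep fragmented replicate 3. Kcnj5 was also highest on that array, at 2.47, 3.79 and 3.05 on the sleep fragmented arrays against 3.16, 3.12 and 3.06 on the controls (log2 fold change -0.01 ± 0.31).

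Most atrial markers were also highest on sleep fragmented replicate 2, namely 6 of the 7 kept, and for 5 of 7 the highest control was replicate 2, where Kcnj3 was not high. Myh7b went the other way, with its lowest value of the 6 arrays, 1.73, on sleep fragmented replicate 2 and its lowest control, 1.77, on replicate 2. Of the 8 listed atrial markers 7 were kept, 7 of 7 with a positive log2 fold change and 0 passing. Their summed linear signal, in units of the array's 75th percentile, ranged from 37.6 to 318 on sleep fragmented arrays, with the highest on replicate 2, and from 19.7 to 217 on control arrays, with the highest also on replicate 2. Myl7, the atrial myosin light chain, stood at -2.86, 3.49 and -1.24 on sleep fragmented arrays and at -3.32, 2.43 and -1.34 on controls. Bmp10, a growth factor of atrial myocytes, was high on sleep fragmented replicate 2 alone, at -2.39, -0.41 and -2.11 in the sleep fragmented group and -2.42, -3.08 and -2.39 in the controls.

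Of the 10 listed conduction and nodal markers 5 were kept. Of these, 2 were higher at an unadjusted p under 0.05, where 1.69% of all named genes were higher. They were Cacna1d (log2 fold change 0.86 ± 0.34) and Cacna2d2 (1.42 ± 0.61), both with an adjusted p of 0.949 by limma. Cacna2d2 was higher on all sleep fragmented arrays than on all controls. Its value was 1.51 on sleep fragmented replicate 2 and negative on every other array. The defining nodal genes Hcn4 and Isl1 were above background on no array. The kept conduction markers had summed linear signals of 5.41 to 7.25 on sleep fragmented arrays, highest on replicate 2, and of 4.57 to 5.64 on controls. That peak was not shared by all of them. Cpne5 was highest on sleep fragmented replicate 2, at 0.08, but Cacna1d was lowest of its group there, at -2.32. Tbx3 had its lowest value of the 6 arrays there, 1.53, and a log2 fold change of -0.205 ± 0.218. The part of these markers in the values of Kcnj3 was not tested.

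**Figure D4:**
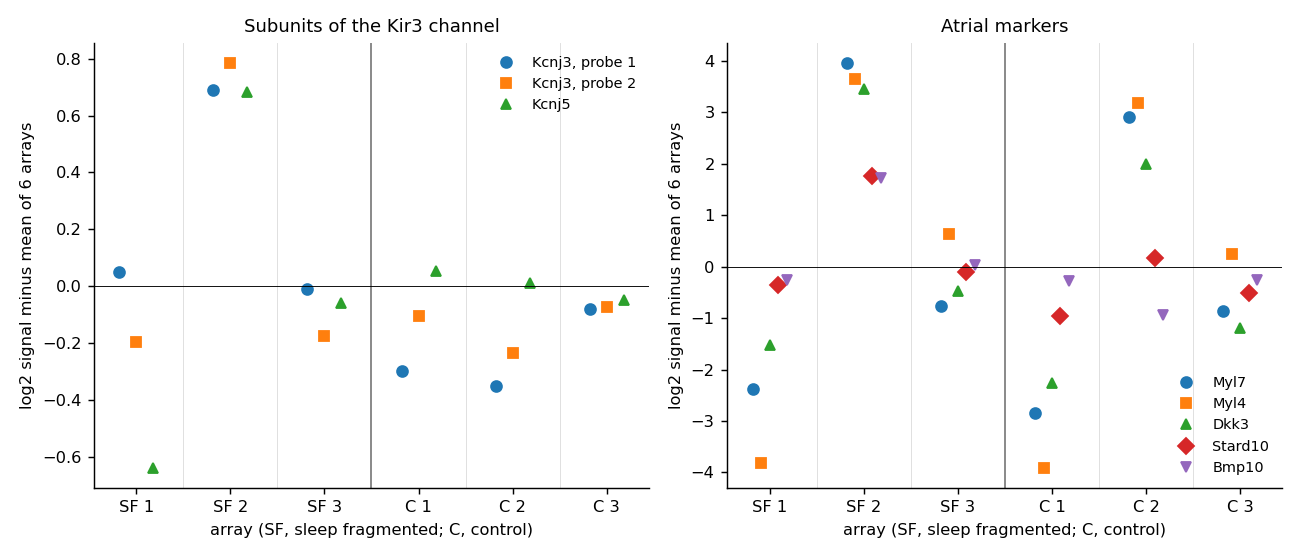
Log2 signal minus the mean over the 6 arrays (y axis, with a wider scale on the right) on each sleep fragmented (SF) and control (C) array, for both Kcnj3 probes and Kcnj5 on the left and for 5 atrial markers on the right. The Kir3 subunits peak on SF 2 alone, while Myl7, Myl4 and Dkk3 are high on SF 2 and on C 2.

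Kcnj11 encodes Kir6.2, the pore of the ATP-sensitive channel that couples metabolism to excitability. Its brighter probe, A_52_P402705, stood at -0.71, -0.95 and -0.31 on the sleep fragmented arrays and at -0.68, -1.37 and -0.50 on the control arrays, and the groups overlapped. The other probe, A_55_P1961477, stood at -2.42, -2.67 and -2.12 on sleep fragmented arrays and at -2.44, -2.78 and -1.91 on controls. On both probes replicate 2 was the lowest and replicate 3 the highest array of each group, as for Kcnip2. The log2 fold change was 0.19 ± 0.27 for the brighter probe (SE; 1.14-fold, 95% interval 0.744 to 1.76, adjusted p = 0.951 by limma) and -0.02 ± 0.26 for the other. The sulfonylurea receptor genes, whose products complete the channel, had log2 fold changes of 0.14 ± 0.24 for Abcc8 and -0.06 ± 0.28 for Abcc9, neither passing.

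Many of the members were lowest on the same array. Control replicate 2 was the lowest of the 6 arrays for 8 of the 11 member probes, and it was the lowest for 43.9% of all kept probes. Sleep fragmented replicate 2 was the highest for 5 of the 11 and for 10.7% of all kept probes. Without control replicate 2 the median log2 fold change of the 8 genes was -0.04 and 3 of 8 were positive, with a median over all kept probes of 0.0080. The SD over the 6 arrays ran from 0.24 to 0.48 log2 units among the member probes, where the median over all kept probes was 0.28.

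**Figure D5:**
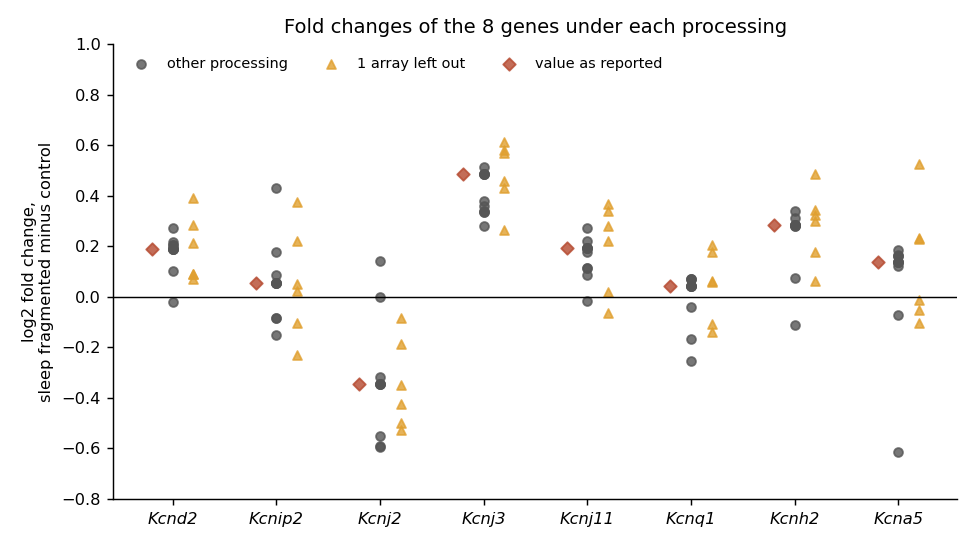
Log2 fold change, sleep fragmented minus control (y axis), of the 8 genes as reported (diamonds), under other processing (circles) and with 1 array left out (triangles). The brightest probe stands for a gene, except in the mean over probes. Kcnj3 is the only gene whose values shown all lie on 1 side of 0 under these settings. Its other probe, not shown alone, was at -0.05 without sleep fragmented replicate 2.

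The other channel genes of the fixed lists gave a similar account. Of 78 listed, 48 were kept; 35 had a positive and 13 a negative log2 fold change, with a median of 0.14. By limma 0 of 48 passed the adjusted threshold and 2 (4.17%) had an unadjusted p under 0.05, where 2.72% of all named genes did; without sleep fragmented replicate 2 neither of these 2 genes had one. Among 22 kept voltage-gated and accessory subunit genes these were Kcnc4, the gene of Kv3.4, and Kcnip3, a relative of Kcnip2 that was chosen after its value was seen. Kcnc4 stood at -1.32, -2.34 and -1.36 on the sleep fragmented arrays and at -0.81, -0.83 and -1.07 on the control arrays, without overlap (log2 fold change -0.77 ± 0.28, 1.71-fold lower, unadjusted p = 0.0239, adjusted p = 0.949). Sleep fragmented replicate 2 was its lowest array, and without it the value was -0.44 (unadjusted p = 0.0657). Without control replicate 1 the unadjusted p was 0.0727, and with normexp background correction the value was -0.37. Kcnip3 stood at -1.1, -0.64 and -0.82 on sleep fragmented arrays and at -1.21, -1.47 and -1.34 on controls, also without overlap (log2 fold change 0.49 ± 0.20, unadjusted p = 0.0336, adjusted p = 0.949), as were 6.93% of all probes. For Kcnip3 the unadjusted p was 0.0799 with quantile normalization, 0.266 with median scaling (log2 fold change 0.28) and 0.0565 without the filter on dim probes. It was 0.112 without sleep fragmented replicate 2, 0.0851 without sleep fragmented replicate 3, 0.0866 without control replicate 2 and 0.074 without control replicate 3.

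Of 12 further inward rectifier and sulfonylurea receptor genes 8 were kept, 4 of them positive and 4 negative, with 0 at an unadjusted p under 0.05. The smallest p values in that list belonged to Kcnj9, the gene of a neuronal Kir3 subunit (log2 fold change 0.53 ± 0.29), and to Kcnj8, the gene of the vascular Kir6.1 (-0.36 ± 0.22). Of 18 genes of leak and calcium-activated channels 10 were kept, 9 of them positive, led by Kcnn3 (0.60 ± 0.31) and Kcnk5 (0.45 ± 0.28), none passing. Dim probes stood higher in the sleep fragmented group as a whole: the median log2 fold change was 0.21 in the dimmer 12610 of the kept probes and -0.02 in the brighter 12609. Of the 11 member probes, 6 lay in the dimmer set.

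Of 13 genes of sodium channel subunits and channel-binding proteins listed, 12 were on the array, 8 were kept, 7 of these had a positive log2 fold change and 0 had an unadjusted p under 0.05. Fgf13, whose product binds sodium channels, had a log2 fold change of 0.20 ± 0.24. Of 19 transcription factors that act on cardiac channel genes or on chamber and transmural pattern, 17 were kept, 9 positive and 8 negative with a median of 0.03, and 0 had an unadjusted p under 0.05. The smallest p belonged to Etv1, a factor of the fast conduction system (0.54 ± 0.32), and to Tbx5 (0.52 ± 0.33). Both were highest on sleep fragmented replicate 2, at 2.39 and 0.92, and stood at 0.80 to 1.47 and -0.42 to -0.29 on the controls.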

How the data were processed

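Total RNA from 6 heart samples was hybridised to 1-colour Agilent arrays of design 026655. Per the file headers, the deposited intensity values (spot signals after background subtraction and detrending, with the spots' medians and local background) come from Agilent Feature Extraction 11.0.1.1, while version 10.5.1.1 stands in the submitters' processing notes. The deposited spot flags (above background, outlier, saturated) are other values, 0 or 1. The authors also deposited 1 table of log2 values, with processing not given in the sources used here. Its columns share a median of 5.53 and matched their own arrays with r of 0.9988 or more, and it served as an alternative.

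Log2 values were taken from the processed intensity, each array's 75th percentile over the non-control spots was subtracted, and spots of 1 probe were averaged without outlier spots. No array had a saturated spot. Kept probes were those well above background on all arrays of either group, which left 25220 of 39429 probes; 25219 had values in both groups and were fitted. Probes were named through unversioned RefSeq accessions and a gene table of GRCm38.p6 (27234 probes, 69.1%). Where a gene had several kept probes, the brightest stood for it.

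Groups were compared with limma 3.58.1 in R 4.3.3 (lmFit and eBayes, two-sided, prior degrees of freedom 4.88), with Benjamini-Hochberg adjustment over all fitted probes and a threshold of 0.05. Intervals are limma's 95% intervals. The fit was tested on simulated data with noise drawn independently for each probe and array. That test cannot speak to deviations shared by the probes of an array. The alternatives were other scalings, background correction, filters, array weights, a trended and robust prior, a replicate block, the mean over probes and the omission of each array. For normexp the median spot signal was used, a choice made after the data were seen, because the files used here have no mean signal. Scan time could not be blocked, since it coincides with the group.

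The labels do not say that the replicate numbers pair the samples, so pairing was used only in the replicate block, an alternative. Between deviations from the group means, same-numbered arrays had r of 0.063, 0.554 and 0.214. For differently numbered arrays r ran from -0.496 to 0.36. These values do not settle whether the samples were paired. In the file headers, same-numbered arrays of both groups share a value of the barcode field, which is not said to be a slide, a position or a batch.

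The members and lists were chosen with earlier results of these data known. Besides the members, the rule for named genes gave Klf15, the partner subunits of the members' channels and, per list, genes at least 1.5-fold different with an unadjusted p under 0.05, or else the 2 with the smallest p; it also took the 5 genes most like Kcnip2 over the 6 arrays. The results for some genes the rule gave are not reported here.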

Additional observations from a re-analysis of the deposited data

How the results depend on the processing

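No member passed the adjusted threshold under any of the 17 alternatives, and of 135 member values 20 had the opposite sign to the value reported. The cause of these changes of sign was not tested. With median scaling, under which the median of all kept probes was -0.13 against 0.08 as reported, the log2 fold changes were -0.02 for Kcnd2, -0.15 for Kcnip2, -0.015 for Kcnj11, -0.17 for Kcnq1 and -0.072 for Kcna5. Kcnip2 stood at -0.086 with quantile normalization and at -0.085 in the authors' deposited table, and Kcnq1 at -0.04 with normexp. The deposited table nearly matched quantile normalization for every member, such as Kcnj2 at -0.592 and -0.593, so it adds little as a separate alternative. Array weights gave 6.38 to control replicate 1 and 3.33 to sleep fragmented replicate 3. The other arrays had 0.326 (control replicate 2) to 0.577. That fit therefore rested mostly on 1 array per group, and 6490 of 25219 probes had an unadjusted p under 0.05 by limma in it. With these weights the values were 0.43 for Kcnip2, 0.14 for Kcnj2, -0.25 for Kcnq1, -0.11 for Kcnh2 and -0.61 for Kcna5. With 1 array left out in turn the values ran from -0.23 to 0.38 for Kcnip2, from -0.066 to 0.37 for Kcnj11, from -0.14 to 0.20 for Kcnq1, from -0.10 to 0.53 for Kcna5, from 0.07 to 0.39 for Kcnd2, from -0.53 to -0.08 for Kcnj2, from 0.26 to 0.61 for Kcnj3 and from 0.06 to 0.49 for Kcnh2.

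Over all probes, 0 passed the adjusted threshold as reported, 3 with normexp, 4 with the replicate block and 109 with array weights. With a 1.5-fold difference and an unadjusted p under 0.05 there were 473 probes, 309 of them higher (65.3%). The count was 179 with normexp, 1344 without a filter on dim probes, 857 with the replicate block and 1325 with array weights; with 1 array left out it ran from 331 to 2693, the highest without control replicate 3, and was 1022 without sleep fragmented replicate 2. The share that was higher was 24.3% with quantile normalization, 24.9% in the authors' deposited table, 15.8% with median scaling, 47.5% with normexp, 85.7% without the filter, 76.4% with the replicate block. The replicate block gave 7 clock genes an unadjusted p under 0.05, against 4 as reported. Over all probes, 1963 of 25180 had one with the block, against 683 of 25219 as reported. The block changed no member's call, and the lowest adjusted p among members was 0.611 by limma, for Kcnj2 and Kcnj3. Kcnj2 had the only member probe that was not well above background on all 6 arrays, being so on 5.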
